A study of Mus musculus with 25 samples.

Results

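The extracellular matrix proteases of the ADAMTS and MMP families and their TIMP inhibitors were described in the soleus, a slow postural leg muscle, of mice with and without the DNA methyltransferase Dnmt3a in muscle. The members were chosen by gene symbol alone: Adamts followed by a number, Mmp followed by a number with or without a or b, and Timp followed by a number. This gave 46 of the 52636 genes in the count table, of which 19 were ADAMTS, 23 were MMP and 4 were TIMP genes. The comparisons asked whether these genes respond to a single bout of running and whether that response depends on Dnmt3a in muscle.

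All animals were C57BL/6 mice of 12 weeks that carried both loxP-flanked (flox/flox) copies of Dnmt3a. Wild type (WT) animals were flox/flox without Cre, and muscle-specific knockout (mD3AKO) animals also carried mCK-Cre, in which the muscle creatine kinase promoter drives Cre recombinase in skeletal muscle and heart late in differentiation, so satellite cells and non-muscle cells may keep the gene. Exercised mice ran on a treadmill for 30 min and were sampled 60 min afterwards, and rested mice spent the same time on a sham treadmill. RNA was sequenced from 1 muscle sample per mouse in 5 rested WT mice (2 female and 3 male), 7 exercised WT mice (4 female and 3 male), 7 rested mD3AKO mice (3 female and 4 male) and 6 exercised mD3AKO mice (3 female and 3 male).

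ADAMTS enzymes are secreted proteases that bind the matrix, and several of them cut the proteoglycans versican and aggrecan, while others trim procollagen. MMPs are zinc proteases that between them cut collagens, gelatin, laminin and many pericellular proteins, either as secreted enzymes or tethered to the cell surface. TIMPs are small secreted proteins that block MMPs, and TIMP3 also blocks several ADAMTS enzymes. In skeletal muscle much of this system is made by fibroblasts, endothelium and other cells between the fibres.

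Each library held between 22671457 and 37431801 gene counts (median 32189360). The targeted gene Dnmt3a was lower in every mD3AKO library (34.5 to 53.9 CPM, the gene's counts scaled to the effective library size) than in any WT library (93.4 to 131 CPM), so the genotype labels and the expression of the gene went together. All 9 slow muscle markers and all 8 fast muscle markers were expressed in these samples. In the library of mouse 15 (rested mD3AKO) the mitochondrial ribosomal RNA mt-Rnr2 took 24.0% of the counts, against 7.0 to 12.0% in the others. A second one, mt-Rnr1, took 7.62% there, against 0.684 to 1.01%. The counts of called members are also given without this library. Males were mice 7 to 19 and females were mice 1 to 6 and 20 to 25, so that the block of numbers that held the males cannot be told apart from sex. In bulk muscle, fewer cells of a type and less RNA per cell cannot be told apart either.

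At the level of TPM (transcript counts divided by gene length and scaled to the same sum in every library), the system was dominated by a few members. Mmp2, the gelatinase that digests denatured collagen and basement membrane, had the highest mean level at 65.4 ± 30.0 TPM (SD, n = 25), and it stood above Timp2, the next in order, in 25 of 25 mice. Timp2, which inhibits MMPs and also takes part in the activation of pro-MMP2 at the cell surface, was at 46.6 ± 14.9 TPM. Adamts1, a versican- and aggrecan-cutting enzyme, followed at 42.9 ± 23.4 TPM and Timp3, the matrix-bound inhibitor, at 33.2 ± 10.3 TPM. Timp2 was above Adamts1 in 17 mice and Adamts1 above Timp3 in 16 of the 25. Adamts1 was above Timp3 in 7 of 12 rested and 9 of 13 exercised mice, whereas its order with Timp2 and Mmp2 depended on exercise. Timp2 was above Adamts1 in all 12 rested mice and in 5 of the 13 exercised mice, with Adamts1 at 27.1 ± 7.12 TPM at rest and 58.1 ± 23.4 after exercise and Timp2 at 50.6 ± 17.9 and 43.1 ± 11.0. Mmp2 too was above Adamts1 in all 12 rested mice, and Adamts1 was above it in 6 of the 13 exercised mice, where Mmp2 averaged 59.0 ± 18.8 TPM. Mouse 15 held the lowest TPM of all 25 mice for Mmp2 (15.6), Timp2 (14.1), Adamts1 (11.7) and Timp3 (10.4). Without it the plain means of the other 24 mice, not averaged by group, were 68.1, 48.1, 44.5 and 34.4 TPM. In TMM-scaled CPM, where the library's scaling factor was 0.63, mouse 15 was lowest for Mmp2 only (48.5 CPM), with Timp2 at 50.4, Adamts1 at 57.1 and Timp3 at 78.1 CPM against lowest values of 47.6, 43.2 and 58.0.

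Below these 4 genes the levels dropped. Adamts8, an antiangiogenic proteoglycanase, was at 16.7 ± 10.1 TPM, and the inhibitors Timp1 and Timp4 were at 13.1 ± 9.75 and 12.8 ± 5.36 TPM over all mice. At rest Timp1 (12.1 ± 7.71 TPM) was above Timp4 (8.41 ± 2.53) in 7 of 12 mice, and after exercise Timp1 (14.4 ± 11.5) was above Timp4 (17.1 ± 3.48) in 2 of 13. All 4 TIMP genes were therefore among the 7 members with the highest mean TPM. The membrane-tethered Mmp15 (7.88 TPM) and Mmp14 (6.22 TPM), which activates pro-MMP2, the aggrecanase Adamts5 (7.44 TPM) and the procollagen N-proteinase Adamts2 (6.77 TPM) were next. The order rests on the length correction: by CPM, Timp3 (105) and Adamts1 (89.7) were above Mmp2 (84.4), and Timp1, at 4.47 CPM, ranked 17.

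**Figure D1:**
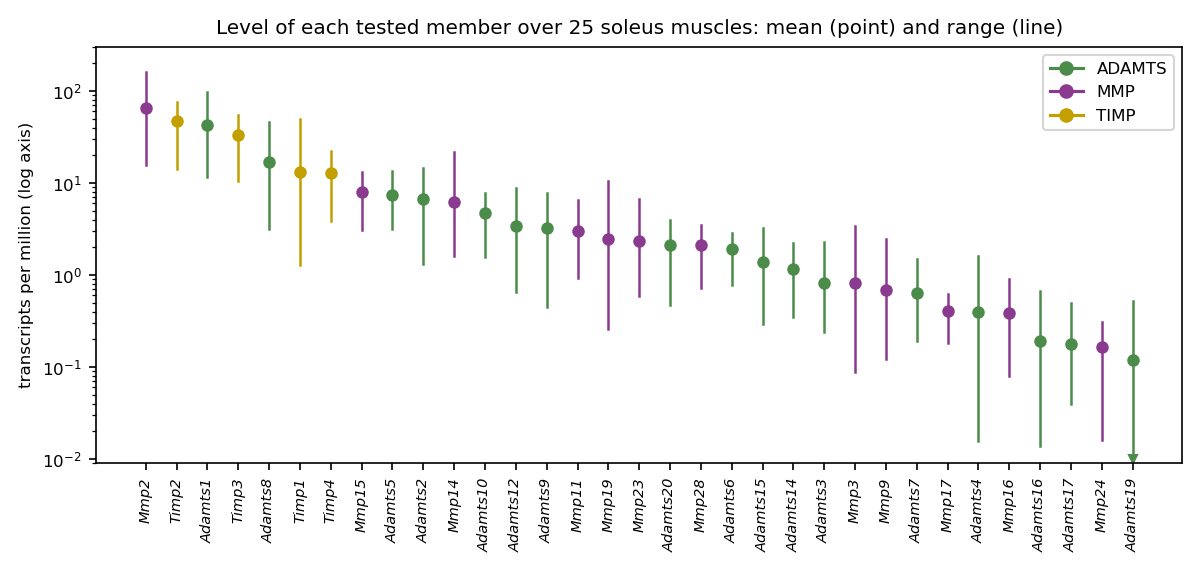
Level of each of the 33 members that passed the filter on low counts, in TPM on a log axis, over 25 soleus samples. Points are means and lines run from the lowest to the highest mouse, and Mmp2, Timp2, Adamts1 and Timp3 stand at the left with means from 65.4 down to 33.2 TPM. The triangle marks Adamts19, whose lowest value was 0.

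The families differed in how many members were expressed. Of the 46 members, 33 had enough reads to be tested: all 4 TIMP, 17 of 19 ADAMTS and 12 of 23 MMP genes. The 13 that did not pass were Adamts13, the plasma protease that cuts von Willebrand factor, Adamts18, the collagenases Mmp1a, Mmp1b, Mmp8 and Mmp13, the stromelysin Mmp10, the matrilysin Mmp7, the macrophage elastase Mmp12, the enamel protease Mmp20, and Mmp21, Mmp25 and Mmp27. Mmp1b had 0 reads in all 25 libraries, and a count of 0 allows up to 0.0755 to 0.21 CPM per library (3 counts of the effective library size, covering counting error only). 10 MMP genes lie within 427072 bases on chromosome 9 (chr9:7272514-7699585, mm10), namely Mmp1a, Mmp1b, Mmp3, Mmp7, Mmp8, Mmp10, Mmp12, Mmp13, Mmp20 and Mmp27, and only Mmp3 of these 10 passed.

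60 min after exercise a small set of matrix genes had moved, in both directions. In edgeR's quasi-likelihood test of exercised against rested mice with both genotypes averaged, 9 of the 33 tested members passed an adjusted p of 0.05, against 10.4% of all 16340 genes tested. The inhibitors Timp3 and Timp4, the proteoglycanases Adamts1 and Adamts9 and the membrane-tethered Mmp24 were higher (8 members without Mmp24, which passed the filter on low counts through the exercised mice only), and Adamts5, Adamts16, Mmp11 and Mmp28 were lower. Over the tested members 12 log2 fold changes were above 0 and 21 below, with a median of -0.22 against -0.001 over all genes, and the median absolute value was 0.40 against 0.0915. Without mouse 7 (rested mD3AKO) 13 were above 0 and 19 below, and the median was nearer 0, at -0.10 against -0.001. As the members were proposed with results of these libraries known, these counts describe them and carry no separate test.

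Adamts9, which cuts versican and aggrecan and is also made by endothelium, had the largest rise. Rested WT mice were at 7.40, 11.1, 11.6, 6.21 and 11.8 CPM, and exercised WT mice ran from 20.3 to 30.4 CPM with a median of 23.8. Rested mD3AKO mice ran from 6.22 to 18.5 CPM (median 12.2) and exercised mD3AKO mice from 20.0 to 49.1 CPM (median 25.5). All 13 exercised mice were above all 12 rested mice, as they were for Timp3, and groups that did not overlap in this way were found for 1.07% of all genes. The level rose 2.51-fold (log2 fold change 1.33 ± 0.17 SE, edgeR adjusted p = 3.76e-06). On the other strand 2 genes share exon bases with it, A730049H05Rik (1381 bases, log2 fold change 1.77) and Gm15737 (424 bases, 1.03), and whether the counting used strand is not given in the sources used here.

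Adamts1 rose 2.11-fold (log2 fold change 1.08 ± 0.19 SE, edgeR adjusted p = 0.000324), with a much wider spread among exercised mice. At rest the WT mice were at 49.3, 76.9, 70.9, 56.5 and 53.9 CPM and the mD3AKO mice between 43.2 and 74.9 CPM (median 51.2). After exercise the WT mice ran from 60.4 to 166 CPM (median 121) and the mD3AKO mice from 59.7 to 214 CPM (median 116). All 13 exercised mice were above the rested median, but only 9 of them were above every rested mouse, and the 5 lowest exercised mice were females (mice 3, 4, 5, 6 and 25, at 59.7 to 88.5 CPM), while the exercised females 22 and 23 were at 121 and 133 CPM.

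Timp3, bound to the matrix through its heparin-binding surface, and Timp4, an inhibitor abundant in heart and muscle, rose together. Timp3 was at 84.8, 95.5, 80.7, 85.7 and 75.2 CPM in rested WT mice and at 108 to 156 CPM (median 123) in exercised WT mice. In mD3AKO mice it was at 58.0 to 95.5 CPM (median 85.3) at rest and at 104 to 165 CPM (median 126) after exercise. Its lowest exercised value thus lay above its highest rested value, a 1.55-fold rise (log2 fold change 0.63 ± 0.08 SE, edgeR adjusted p = 6.09e-06).

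Timp4 was at 22.6, 16.9, 21.0, 25.9 and 17.4 CPM in rested WT mice and at 30.8 to 55.4 CPM (median 41.8) in exercised WT mice. In mD3AKO mice it was at 8.58 to 27.9 CPM (median 20.4) at rest and at 27.9 to 45.9 CPM (median 36.8) after exercise. It rose 1.95-fold (log2 fold change 0.97 ± 0.14 SE, edgeR adjusted p = 1.49e-05), and 12 of 13 exercised mice were above every rested mouse. Both inhibitors lie inside a synapsin gene read from the other strand: Syn3 shares 1733 exon bases with Timp3 and had a log2 fold change of 0.42 (adjusted p = 0.0524), and Syn2 shares 90 with Timp4 and had one of 0.45 (adjusted p = 0.0123).

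The other inhibitors did not pass. Timp1, the inducible inhibitor on the X chromosome, averaged 4.04 ± 2.28 CPM in 12 rested mice and 5.00 ± 4.25 CPM in 13 exercised mice (log2 fold change 0.40 ± 0.32 SE, edgeR adjusted p = 0.548). Without mouse 19, the exercised mouse at 18.2 CPM, the other 12 exercised mice averaged 3.90 ± 1.56 CPM and the log2 fold change was -0.005 ± 0.25 SE. Timp2 averaged 76.2 ± 17.9 CPM at rest and 64.8 ± 13.5 CPM after exercise (log2 fold change -0.22 ± 0.12 SE, edgeR adjusted p = 0.321). The ranges of the rested and exercised mice overlapped for both genes.

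Mmp24, a membrane-tethered enzyme best known from nerve tissue, was close to the limit of detection. It had 3 to 13 reads in rested WT mice, 8 to 15 in exercised WT mice, 1 to 15 in rested mD3AKO mice and 9 to 18 in exercised mD3AKO mice, for means of 0.221 ± 0.111 CPM in 12 rested and 0.377 ± 0.102 CPM in 13 exercised mice. The log2 fold change was 0.72 ± 0.22 SE (edgeR adjusted p = 0.0375), and all 13 exercised mice were above the rested median. Few rested mice reached the level used to filter genes (2 of 5 WT and 1 of 7 mD3AKO, against 5 of 7 and 5 of 6 exercised), and 5 libraries were needed, so that the gene entered the test through the exercised mice only, and its call is a description. With no filter the adjusted p was 0.0873. The gene shares 637 exon bases with BC029722 on the other strand, which had 9164 reads in total against 245 for Mmp24.

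**Figure D2:**
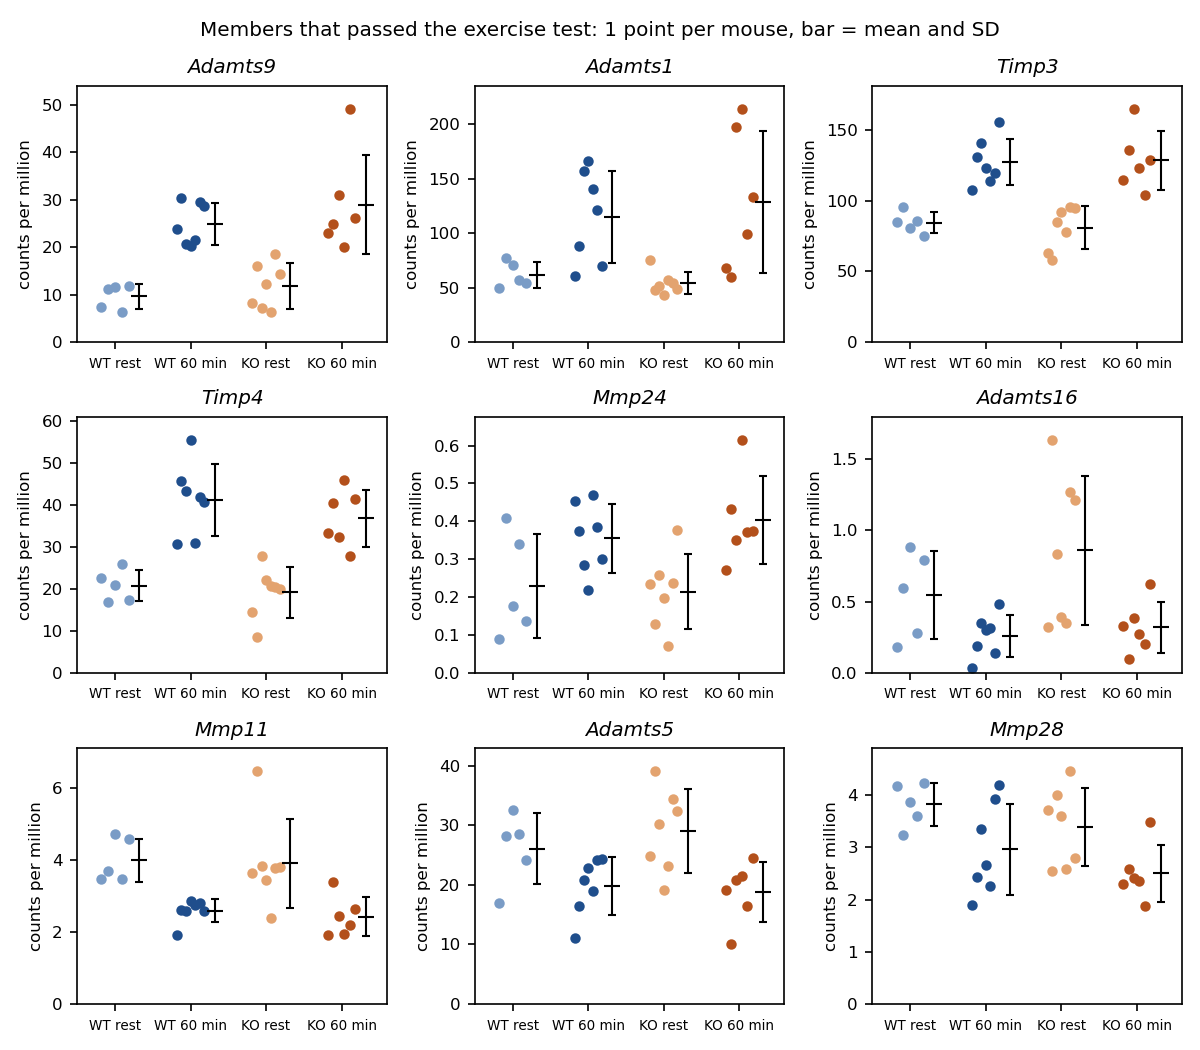
The 9 members that passed the test of exercise, in CPM, with 1 point per mouse in 4 groups (WT and mD3AKO, shown as KO, at rest and 60 min after exercise) and bars for mean and SD. Exercised points lie above all rested points in both genotypes for Adamts9 and Timp3, whereas Adamts1 is spread from 59.7 to 214 CPM after exercise. Adamts16 reaches at most 1.63 CPM and Mmp24 at most 0.614 CPM.

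Adamts5, the aggrecan- and versican-cutting enzyme that clears proteoglycan around myoblasts, went the other way from Adamts1, its neighbour 55056 bases along chromosome 16. Rested WT mice were at 16.9, 28.2, 32.6, 28.5 and 24.2 CPM and exercised WT mice ran from 11.0 to 24.4 CPM (median 20.8). Rested mD3AKO mice ran from 19.1 to 39.1 CPM (median 30.2) and exercised mD3AKO mice from 10.0 to 24.5 CPM (median 20.0). The ranges overlapped, but all 13 exercised mice were below the rested median, and the level was 1.43-fold lower (log2 fold change -0.52 ± 0.14 SE, edgeR adjusted p = 0.0175).

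Mmp11, a stromelysin that furin activates inside the cell and that fibroblasts make during tissue remodelling, was at 3.49, 3.71, 4.72, 3.49 and 4.59 CPM in rested WT mice. In exercised WT mice it ran from 1.93 to 2.88 CPM (median 2.62), so that all 7 were below every rested WT mouse. In mD3AKO mice it ran from 2.38 to 6.48 CPM (median 3.78) at rest and from 1.93 to 3.39 CPM (median 2.33) after exercise, where the groups overlapped. The overlap came from mouse 15 alone (2.38 CPM), as the other rested mD3AKO mice were at 3.45 CPM or more. Mmp11 fell 1.58-fold (log2 fold change -0.66 ± 0.12 SE, edgeR adjusted p = 0.000348). It shares 155 exon bases with Chchd10 on the other strand, which had a log2 fold change of -0.003.

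Adamts16, known for roles in kidney and gonad, was among the members with few reads. It had 6 to 30 reads in rested WT mice, 1 to 16 in exercised WT mice, 5 to 64 in rested mD3AKO mice and 3 to 20 in exercised mD3AKO mice. The means were 0.728 ± 0.459 CPM in 12 rested and 0.286 ± 0.159 CPM in 13 exercised mice, all 13 exercised mice were below the rested median, and the log2 fold change was -1.26 ± 0.33 SE (edgeR adjusted p = 0.0125). The gene reached the filter level in 3 of 5 rested and 2 of 7 exercised WT mice, and in 6 of 7 rested and 3 of 6 exercised mD3AKO mice.

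Mmp28, or epilysin, which is made by epithelia and other cells at rest, was at 4.18, 3.24, 3.87, 3.61 and 4.23 CPM in rested WT mice and at 1.89 to 4.20 CPM (median 2.66) in exercised WT mice. In mD3AKO mice it was at 2.55 to 4.46 CPM (median 3.61) at rest and at 1.87 to 3.49 CPM (median 2.39) after exercise. The fall was 1.32-fold (log2 fold change -0.40 ± 0.13 SE, edgeR adjusted p = 0.0403) with overlapping ranges. It shares 12.0% of its exon bases with 1700020L24Rik on the other strand, which had a log2 fold change of -0.59 (adjusted p = 0.177). Mmp28 and Mmp24 were the calls that a single library could end: in the 25 fits that each left out 1 library, the adjusted p ran from 0.0161 to 0.0793 for Mmp28, which lost its call in 16, and from 0.0117 to 0.0805 for Mmp24, which lost it in 10, while the other 7 calls held in all 25.

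The other 24 tested members had log2 fold changes from -0.54 to 0.60 and did not pass. The values at the ends were those of Mmp14 (17.1 ± 10.1 CPM at rest and 11.4 ± 3.04 after exercise, log2 fold change -0.54 ± 0.21 SE, edgeR adjusted p = 0.115) and of Mmp19, an enzyme of activated myeloid and vascular cells (0.60 ± 0.31 SE, adjusted p = 0.265). Mmp14 was at 45.4 CPM in mouse 7, a rested mouse, with the next at 23.4 CPM. Mmp19 was at 15.5 CPM in mouse 19, and without that mouse its log2 fold change was 0.16 ± 0.21 SE (edgeR adjusted p = 0.784). It shares 789 exon bases with Tmem198b on the other strand, which had a log2 fold change of 0.03. Mmp2 had a log2 fold change of -0.28 ± 0.18 SE (adjusted p = 0.411). Among the procollagen N-proteinases Adamts2, Adamts3 and Adamts14 had log2 fold changes of -0.22, -0.34 and -0.06. Adamts7 and Adamts12, which cut cartilage oligomeric matrix protein, had log2 fold changes of -0.33 and -0.41. Adamts7 (1298 reads) shares 122 exon bases with Tbc1d2b on the other strand, which had 13264 reads and a log2 fold change of -0.39 (edgeR adjusted p = 0.00158). Neither Adamts7 and Adamts12 nor the N-proteinases passed.

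Promoter windows for 32 of the 46 members were found in RefSeq (build GRCm38.p6), from 250 bases before to 50 after each transcript start. The 250 bases before the start are shown, 5′ to 3′ on the gene's strand, for the 6 members with the largest change among the 7 that passed the test of exercise and had a window (Mmp28 is the one not shown), because they moved at the same time, and for Mmp3 and Mmp10 of the chromosome 9 cluster, because that cluster was nearly silent here. Capitals mark, on either strand, TGANTCA (the AP-1 site bound by Fos and Jun proteins), TGACG (the core of the cyclic AMP response element), TATAAA (the TATA box) and GGGCGG (the GC box).
Adamts1 (chr16:85803114-85803363, minus strand): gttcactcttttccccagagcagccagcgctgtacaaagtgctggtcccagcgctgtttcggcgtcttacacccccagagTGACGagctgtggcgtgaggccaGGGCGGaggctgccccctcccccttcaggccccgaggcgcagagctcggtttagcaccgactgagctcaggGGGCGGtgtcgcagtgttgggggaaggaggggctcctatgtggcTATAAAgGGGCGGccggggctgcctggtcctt
Adamts9 (chr6:92943535-92943784, minus strand): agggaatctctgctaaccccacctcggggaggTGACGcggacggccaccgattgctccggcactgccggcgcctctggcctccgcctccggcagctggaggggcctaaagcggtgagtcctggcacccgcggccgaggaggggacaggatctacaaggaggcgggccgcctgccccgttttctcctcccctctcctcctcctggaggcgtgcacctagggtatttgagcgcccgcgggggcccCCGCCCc
Timp3 (chr10:86300162-86300411, plus strand): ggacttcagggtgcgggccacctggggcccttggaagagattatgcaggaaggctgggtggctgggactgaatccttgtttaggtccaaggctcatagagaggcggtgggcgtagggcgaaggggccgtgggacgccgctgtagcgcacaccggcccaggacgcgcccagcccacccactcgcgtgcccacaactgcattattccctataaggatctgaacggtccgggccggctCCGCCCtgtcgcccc
Timp4 (chr6:115252206-115252455, minus strand): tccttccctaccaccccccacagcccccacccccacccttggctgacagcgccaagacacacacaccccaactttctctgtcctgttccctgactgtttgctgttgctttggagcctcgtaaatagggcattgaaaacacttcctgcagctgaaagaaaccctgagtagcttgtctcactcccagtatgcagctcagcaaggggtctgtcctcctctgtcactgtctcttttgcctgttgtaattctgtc
Mmp24 (chr2:155775092-155775341, plus strand): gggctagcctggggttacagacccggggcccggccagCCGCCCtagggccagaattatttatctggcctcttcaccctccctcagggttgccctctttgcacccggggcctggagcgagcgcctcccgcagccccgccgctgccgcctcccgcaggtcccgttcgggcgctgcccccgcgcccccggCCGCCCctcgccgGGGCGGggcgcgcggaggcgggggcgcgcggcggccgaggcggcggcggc
Mmp11 (chr10:75932503-75932752, minus strand): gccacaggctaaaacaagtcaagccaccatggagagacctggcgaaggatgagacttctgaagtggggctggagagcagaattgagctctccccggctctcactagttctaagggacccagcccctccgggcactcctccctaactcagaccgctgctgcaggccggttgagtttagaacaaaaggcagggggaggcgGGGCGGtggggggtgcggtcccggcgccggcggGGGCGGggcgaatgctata
Mmp3 (chr9:7445572-7445821, plus strand): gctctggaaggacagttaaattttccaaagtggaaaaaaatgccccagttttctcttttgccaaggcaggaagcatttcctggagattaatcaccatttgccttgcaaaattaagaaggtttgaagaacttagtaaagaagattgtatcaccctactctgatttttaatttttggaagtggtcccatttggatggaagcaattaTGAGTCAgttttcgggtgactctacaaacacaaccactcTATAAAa
Mmp10 (chr9:7502092-7502341, plus strand): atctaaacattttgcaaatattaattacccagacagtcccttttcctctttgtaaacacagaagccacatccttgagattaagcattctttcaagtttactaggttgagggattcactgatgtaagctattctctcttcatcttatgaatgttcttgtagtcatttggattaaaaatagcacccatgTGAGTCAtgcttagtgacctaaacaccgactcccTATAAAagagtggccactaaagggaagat

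The letters were counted in the windows of all members that had one. TGANTCA occurred in the windows of 8 of the 32 members, against 8.97% of the 27025 genes with a window, and all 8 (Mmp1a, Mmp1b, Mmp3, Mmp7, Mmp10, Mmp12, Mmp13 and Mmp20) belong to the chromosome 9 cluster, whose other members Mmp8 and Mmp27 lacked it. TATAAA occurred in 11 members, against 15.7% of genes, and these included the same 8. Of the 7 members that passed the test of exercise and had a window, 0 held TGANTCA and 1 held TATAAA there, and with so few members these counts cannot be told from the shares of all genes. TGACG was found in 5 members (23.0% of genes), among them Adamts1, where it starts at -170 from the transcript start, and Adamts9, where it starts at -218. Adamts1 also had TATAAA at -32, and GGGCGG was found in 18 members (38.2% of genes), including 6 that passed the exercise test. The letters describe these windows only and were not tested against binding.

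Genes for AP-1 proteins and other early inducers were measured in the same libraries. Of 12 such genes tested, 4 rose with exercise and 1, Tnf, fell, against 10.4% of all genes called. Atf3 went from 16.4 ± 8.16 CPM in 12 rested mice to 328 ± 277 in 13 exercised mice, and Fos from 9.15 ± 6.94 to 93.9 ± 88.7 (log2 fold changes 4.30 and 3.35, edgeR adjusted p = 3.2e-06 and 6.72e-05). Jun and Fosl2 had log2 fold changes of 1.04 and 1.09. The exercised mice were not alike: the summed level of the list was 180 to 292 CPM in 5 of them, all female, inside the rested range of 160 to 424 CPM, and 607 to 1520 CPM in the other 8. The same 5 mice had the lowest Adamts1 of the exercised mice (59.7 to 88.5 CPM). The part of these genes in the level of Adamts1 was not tested.

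Outside the 3 families, 27 further regulators of matrix proteolysis were tested, and 2 rose and 1 fell, a share close to the 10.4% of all genes called. Adamtsl2, an ADAMTS-like protein without protease activity, went from 3.16 ± 0.817 to 7.87 ± 2.18 CPM (log2 fold change 1.28 ± 0.14 SE, edgeR adjusted p = 2.05e-07). Plaur, the urokinase receptor, had a log2 fold change of 1.17 (adjusted p = 0.00233). Adam19, a membrane protease, was at 9.50 ± 3.40 CPM at rest and 4.87 ± 1.26 after exercise (log2 fold change -0.95, adjusted p = 0.000355).

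For the substrates of these enzymes, none of 33 tested genes passed the test of exercise (median log2 fold change -0.19), and their summed level was 3130 to 12500 CPM (median 5310) at rest and 3520 to 6840 CPM (median 5290) after exercise. Of 12 genes of collagen processing, the prolyl and lysyl hydroxylases P4ha1, P4ha2 and Plod2 rose (log2 fold changes 0.39, 0.34 and 0.64) and the others did not pass, where 10.4% of all genes were called. None of the 9 fibroblast markers, 8 tendon and cartilage markers or 7 macrophage markers passed. The fibroblast markers had a median log2 fold change of -0.287 and summed to 1980 to 6810 CPM at rest and 2160 to 4810 after exercise. Of 5 satellite cell markers 2 fell, and of 3 neutrophil markers tested 1 fell, beside the same 10.4% of all genes. Of 8 endothelial markers 4 fell (Kdr, Tek, Emcn and Cdh5, log2 fold changes -0.58, -0.35, -0.27 and -0.23) and Flt1 rose (0.32), with summed levels of 491 to 656 CPM at rest and 452 to 588 after exercise, and of 7 smooth muscle and pericyte markers Pdgfrb and Kcnj8 fell (-0.46 and -0.29), beside the same 10.4% of all genes. Their part in the change of Adamts9, Adamts1, Timp3 and Timp4 was not tested.

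The response to exercise was then taken in each genotype. In WT mice 4 members passed (Adamts9, Timp3, Timp4 and Mmp11), against 3.59% of all genes, and in mD3AKO mice 5 passed (the same 4 and Adamts1), against 6.02%. Adamts9 rose by 1.38 ± 0.25 SE on the log2 scale in WT and 1.28 ± 0.23 in mD3AKO mice. Timp3 rose by 0.60 ± 0.12 and 0.67 ± 0.12, Timp4 by 0.99 ± 0.20 and 0.94 ± 0.19, and Mmp11 changed by -0.62 ± 0.17 and -0.70 ± 0.17. Adamts1 had a log2 fold change of 0.90 ± 0.28 in WT mice (edgeR adjusted p = 0.0851) and 1.26 ± 0.26 in mD3AKO mice (adjusted p = 0.00314), and the difference between them, 0.36 ± 0.38, did not pass (adjusted p = 1.0). Without mouse 15 the count in mD3AKO mice was 9, with Adamts5, Adamts15, Adamts16 and Mmp14 added, against 6.48% of all genes, and that in WT mice was 4, against 3.72%. Without mouse 7 the count in mD3AKO mice was 5, against 5.46%.

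**Figure D3:**
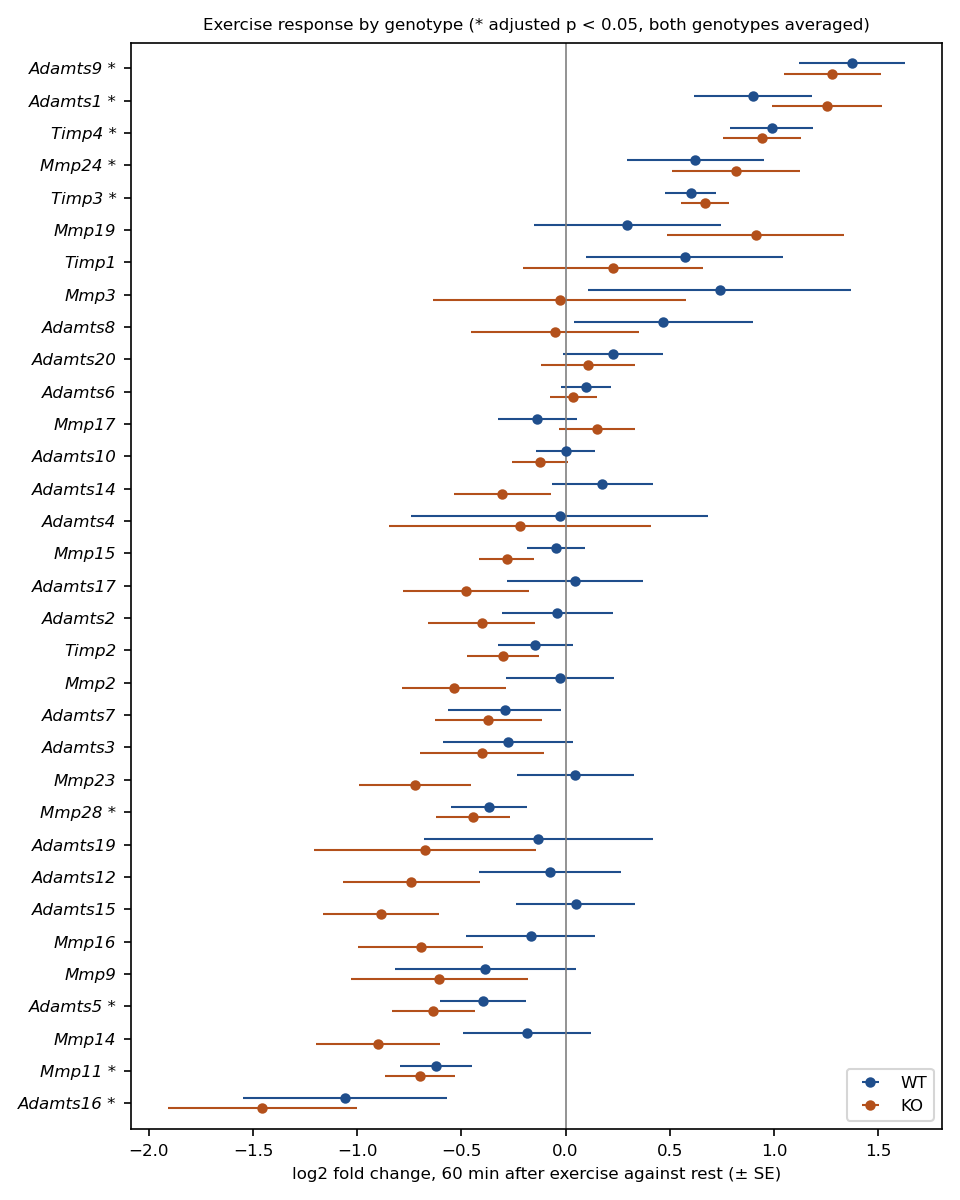
Log2 fold change of each of the 33 tested members, 60 min after exercise against rest, in WT (blue) and mD3AKO (orange, KO) mice, with bars of 1 SE. The members with an asterisk passed with both genotypes averaged, and for Adamts9, Timp4 and Timp3 at the top and Mmp11 near the bottom the WT and KO values lie within 1 SE of each other.

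The test of the difference between the genotypes' responses passed for none of the 33 members, as for 0.0% of all genes, and DESeq2 also called none. At an unadjusted p under 0.05 it picked 1 member, against 2.47% of all genes. This was Adamts15, a proteoglycanase expressed during muscle development, with log2 fold changes of 0.05 ± 0.28 SE in WT and -0.89 ± 0.28 in mD3AKO mice, a difference of -0.93 ± 0.40 (edgeR adjusted p = 1.0). It averaged 5.49 ± 1.63 CPM in 5 rested WT, 5.67 ± 2.57 in 7 exercised WT, 6.79 ± 2.65 in 7 rested mD3AKO and 3.71 ± 0.989 in 6 exercised mD3AKO mice. Without mouse 15 none passed either, and 2 members had an unadjusted p under 0.05, Adamts15 (-1.04 ± 0.37 SE) and Mmp23 (-0.86 ± 0.37), both with an edgeR adjusted p of 0.992. The share of all genes under that p rose as well, to 3.39%.

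The differences were below 0 for 28 of the 33 members, with a median of -0.22 against -0.007 over all genes. The values furthest below 0 after Adamts15 were those of Mmp23 (-0.77 ± 0.39 SE), Mmp3 (-0.77 ± 0.88) and Mmp14 (-0.72 ± 0.43). The matrix substrates had a median difference of -0.22 too. The rested mD3AKO group holds mouse 7, the mouse with the highest matrix levels of the series, and without that mouse 24 of 32 members were below 0, with a median of -0.16. Without mouse 15 it was 28 of 33, with a median of -0.27.

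Loss of Dnmt3a in muscle itself was followed by no change that passed in any member. With rest and exercise averaged, 0 of 33 members were called in mD3AKO against WT mice, against 0.269% of all genes, and none had an unadjusted p under 0.05, against 6.23% of all genes. DESeq2 also called none. With rest and exercise averaged, 22 members were above 0 and 11 below (median 0.04). Without mouse 7, a rested mD3AKO mouse, 15 were above and 17 below (median -0.005). Taken apart, the members' median was 0.19 at rest against 0.0084 over all genes, and -0.05 after exercise against 0.0015, and none was called at either time. At an unadjusted p under 0.05 there was 1 member at rest, Mmp23 (log2 fold change 0.60 ± 0.28 SE, edgeR adjusted p = 1.0), against 3.65% of all genes, and 1 after exercise, Adamts15 (-0.61 ± 0.28 SE, adjusted p = 0.873), against 5.51%. The highest Mmp23 of the rested mD3AKO mice was in mouse 7 (5.49 CPM), followed by mouse 21 (4.04 CPM). Averaged over both, the values furthest from 0 were those of Adamts4, an inducible aggrecanase (log2 fold change 0.74 ± 0.48 SE, edgeR adjusted p = 0.928), and Timp1 (0.59 ± 0.32, adjusted p = 0.877). Among exercised mD3AKO mice Adamts4 was at 3.26 CPM in mouse 19 and at most 0.573 CPM in the others. In the 25 fits that each left out 1 library the value for Timp1 ran from 0.19 ± 0.25 SE without mouse 19 to 0.68 without mouse 5, with an unadjusted p under 0.05 in 3 (without mouse 5, 15 or 17) and edgeR adjusted p from 0.782 to 1.0. Without mouse 15 none of the members passed either, and Timp1 (0.66 ± 0.30) was the 1 member with an unadjusted p under 0.05, against 6.23% of all genes in that fit. For the 4 abundant members the estimates were near 0: 0.09 ± 0.18 SE for Mmp2 (0.34 ± 0.26 at rest and -0.17 ± 0.25 after exercise), 0.06 ± 0.12 for Timp2, -0.01 ± 0.19 for Adamts1 and -0.02 ± 0.08 for Timp3. These errors leave room for small differences that this number of mice would not show.

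In some mice many members stood apart at once. Mouse 7, a rested mD3AKO male, had the highest value of all 25 mice in 15 of the 33 tested members. Mmp2 was at 194 CPM there, against at most 124 in any other mouse, its activator Mmp14 at 45.4 against at most 23.4, and Timp2, at 101 CPM, lay just above the next mouse. Adamts2 reached 48.2 CPM against at most 38.4 and Adamts12 19.3 against 16.6. Among the low members, Adamts19, of unknown substrate, had 34 reads against at most 12, and the macrophage elastase Mmp12, which did not pass the filter, had 63 against at most 17. The same mouse had the lowest value of the series for Timp3 (58.0 CPM) and Timp4 (8.58 CPM), so the inhibitors divided, with Timp2 highest and Timp3 and Timp4 lowest.

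In mouse 7 the summed matrix substrates (12500 CPM), fibroblast markers (6810 CPM) and macrophage markers (177 CPM) were each the highest of the 25 mice. Its neutrophil markers (2.68 CPM, next 2.42) were also the highest, but only 3 of these 7 genes had enough reads to be tested. Its summed slow muscle markers, a list that includes Acta1 and Ckm, were the lowest (60800 CPM), and its fast muscle markers (30800 CPM) ranked 21. Mouse 21, a rested mD3AKO female, was second for matrix substrates (8160 CPM) and fibroblast markers (5680 CPM), and had the highest value in 5 members, among them Mmp9, the gelatinase of neutrophils and macrophages. Its macrophage markers (155 CPM) ranked 2 and its neutrophil markers (1.48 CPM) 8 of the 25 mice, its Schwann cell markers (430 CPM, next 275) and mast cell markers (34.8 CPM, next 27.0) were the highest, and its adipocyte markers (213 CPM) were second. At the other end, mouse 15 had the lowest value in 7 members and the lowest summed matrix substrates (3130 CPM), and mouse 6, an exercised mD3AKO female, had the lowest in 6. The part that the mix of cells in these samples has in the members' levels was not tested. The exercise test called 8 members without mouse 7, Mmp24 being the one lost (adjusted p = 0.0595), and 9 without mouse 15, against 10.2 and 11.0% of all genes.

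**Figure D4:**
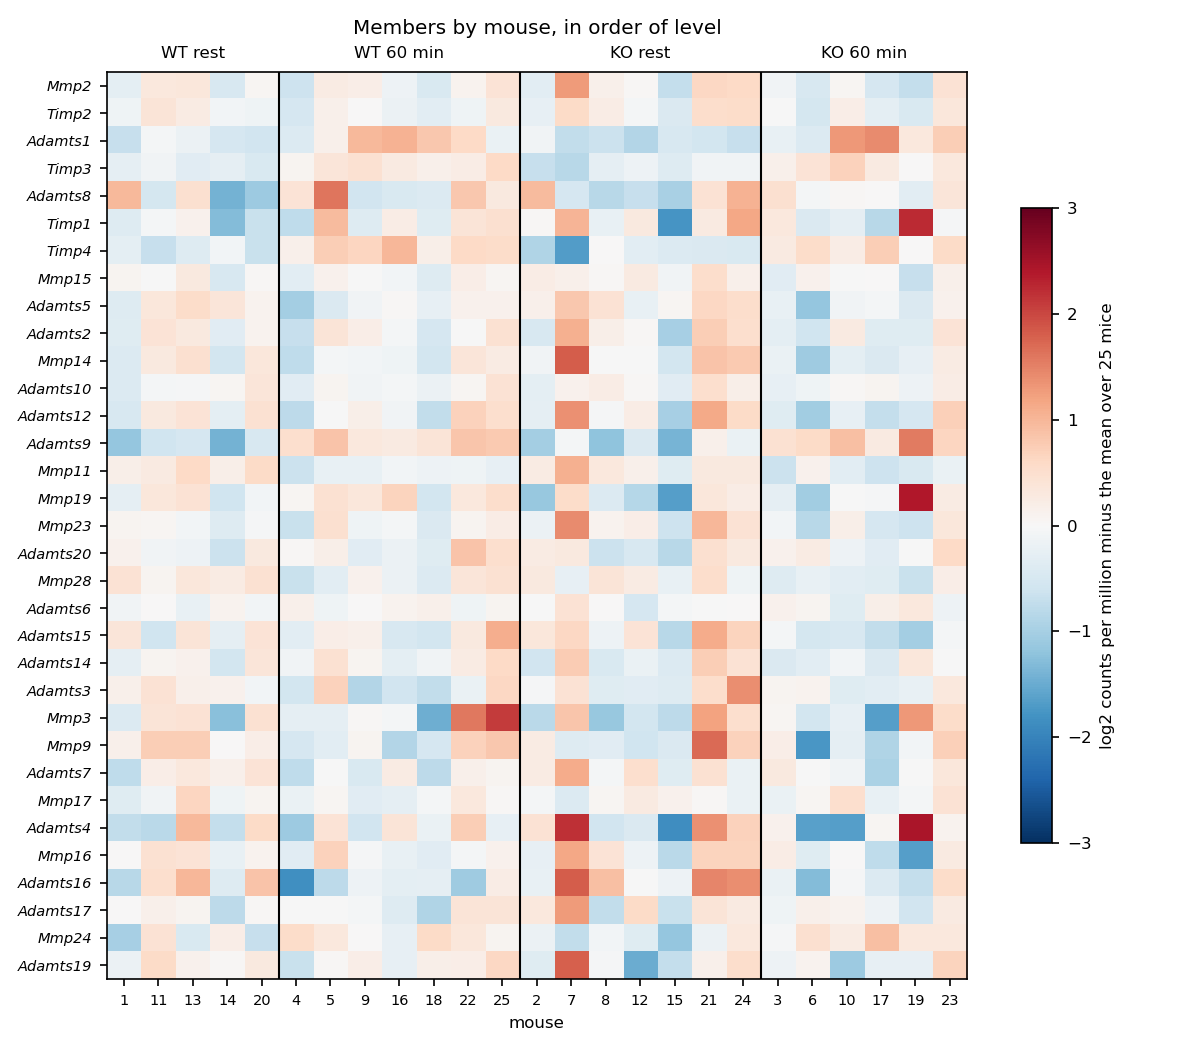
Heat map of the 33 tested members (rows, in order of TPM) in the 25 mice (columns, by group), as log2 of CPM plus 0.1 minus the member's mean over all mice. Mouse 7 is red in most rows and blue in Timp3 and Timp4, and mouse 19 is red in Timp1, Mmp19, Adamts4 and Adamts9.

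Mouse 19, an exercised mD3AKO male, showed another pattern. Timp1 was at 18.2 CPM there and at most 8.68 in any other mouse, and Mmp19 was at 15.5 CPM against at most 4.56. Adamts9 was at 49.1 CPM against at most 31.0 and Adamts4 at 3.26 against at most 2.71. The stromelysin Mmp10 had 45 reads in this library and at most 1 in any other. Plaur (6.99 CPM against at most 2.33) was also highest in this mouse, while Mmp2 (48.9 CPM) was the second lowest of the series and Mmp15, Mmp16, Mmp28 and Adamts15 were lowest there. The summed macrophage markers (150 CPM) of mouse 19 were the highest of the 13 exercised mice. So were its neutrophil markers (2.34 CPM), whose sum was low in every mouse of the series (0.241 to 2.68 CPM). Its fibroblast markers (2460 CPM) ranked 22 of the 25 mice. The part of these markers in the members' levels was not tested. Without mouse 19 the exercise test called 8 members, with Mmp28 lost (adjusted p = 0.0687), against 10.3% of all genes.

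Further differences among the ADAMTS genes were found between the sexes. In a fit with 8 groups (genotype, exercise and sex), 5 of 34 members tested differed between 13 males and 12 females, against 8.15% of the 17389 genes tested. Adamts20, Adamts8, Adamts15 and Adamts3 were lower in males and Adamts1 was higher, and no MMP or TIMP gene passed. Mmp9 came nearest among these (log2 fold change -0.61 ± 0.26 SE, edgeR adjusted p = 0.156), and it passed without mouse 6, an exercised mD3AKO female (log2 fold change -0.73, adjusted p = 0.0414). Without mouse 15 the count was 4, with Adamts3 lost (log2 fold change -0.53, edgeR adjusted p = 0.0654), against 7.26% of all genes.

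Adamts20, a proteoglycanase known for its part in pigment cell development, came closest of these 5 to separating the sexes. Females ran from 7.30 to 12.8 CPM (median 8.56) and males from 3.92 to 8.70 CPM (median 5.57), with 12 of 13 males below every female (log2 fold change -0.59 ± 0.12 SE, edgeR adjusted p = 0.00255). This call held in all 25 fits that left out 1 library. Adamts8 ran from 12.2 to 79.1 CPM (median 35.9) in females and from 9.70 to 36.3 CPM (median 18.5) in males, and 6 of 12 females were above every male (log2 fold change -0.95 ± 0.21 SE, adjusted p = 0.00608). Without mouse 1, a rested WT female, its log2 fold change was -0.60 and the call was lost (adjusted p = 0.05), in a fit that left 1 rested WT female. Adamts8 shares 489 exon bases with Gm29724 on the other strand, which had few reads (221 in all). Adamts15, which lies 20109 bases from Adamts8 on chromosome 9, had a log2 fold change of -0.57 ± 0.17 SE (adjusted p = 0.0418) and Adamts3 one of -0.54 ± 0.17 (adjusted p = 0.0496), and both had ranges that overlapped between the sexes. In the 25 fits that each left out 1 library these calls were lost in 14 and 20, that of Adamts1 was lost in 12, and the count of members called fell to 1 without mouse 1, where 7.2% of all genes were called.

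**Figure D5:**
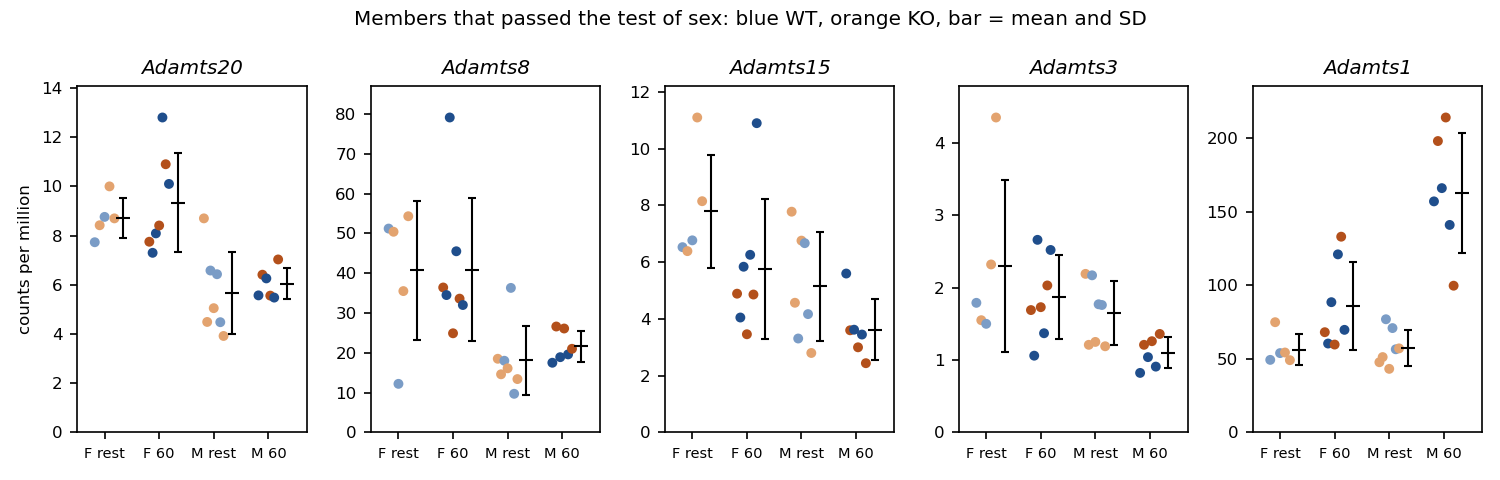
The 5 members that passed the test of sex, in CPM, for females (F) and males (M) at rest and 60 min after exercise, with 1 point per mouse (blue WT, orange mD3AKO) and bars for mean and SD. Adamts20 and Adamts8 lie lower in males at both times, and Adamts1 is close in the sexes at rest (means 56.3 and 57.6 CPM) and reaches 99.7 to 214 CPM in exercised males against 59.7 to 133 in exercised females.

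For Adamts1 the means of the sexes were close at rest and further apart after exercise, with ranges that overlapped. The 5 rested females averaged 56.3 ± 10.7 CPM and the 7 rested males 57.6 ± 12.3 CPM, whereas the 7 exercised females averaged 85.7 ± 29.8 CPM and the 6 exercised males 163 ± 41.0 CPM. Fitted in each sex alone, the log2 fold change with exercise was 0.63 ± 0.23 SE in females (edgeR adjusted p = 0.232) and 1.47 ± 0.15 in males (adjusted p = 4.05e-05). The test of the difference between the sexes gave 0.84 ± 0.28 (unadjusted p = 0.00707) and did not pass across all genes (adjusted p = 1.0). Adamts9, Timp3 and Timp4 passed within each sex alone, with log2 fold changes of 1.19, 0.63 and 1.02 in females and 1.38, 0.63 and 0.92 in males.

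Other genes moved with sex in the same libraries. Of 14 AP-1 and early inducer genes tested, 7 were higher in males, among them Fosb, Ptgs2 and Egr1 (log2 fold changes 2.06, 1.60 and 1.55), against 8.15% of all genes called for sex. Of 9 slow muscle markers 5 were lower in males, with Myh7 at -0.49, and 1 was higher. Of 8 fast markers 4 were higher, with Myh1 at 0.50, and 0 were lower, beside the same 8.15%. Plaur was higher in males by 0.80 on the log2 scale. The part of these in the sex difference of the ADAMTS genes was not tested, and all males were in 1 block of animal numbers.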

How the data were processed

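RNA from the soleus of 25 mice was sequenced as read pairs of 75 bases. Per the submitters' processing notes and the study's methods, the authors checked reads with FastQC 0.11.5, aligned them to mm10 with STAR 2.5.3a and counted them per gene with featureCounts 1.5.3 on GENCODE mouse release 15; the strand setting is not given in the sources used here. The deposited values were raw counts for 52636 genes in 1 table with 0 columns of other samples, and symbols for 52403 gene IDs came from GENCODE mouse release 21, a later release than the authors'. Genes were kept by filterByExpr (minimum count 10, minimum total 15; 16340 genes) and tested with edgeR 4.0.16 (limma 3.58.1, R 4.3.3): TMM scaling, quasi-likelihood fit of 4 groups, Benjamini-Hochberg adjustment over all genes tested, and SE taken as the log2 fold change over the square root of F. Sex was tested in a fit of 8 groups. CPM are TMM-scaled, and TPM were computed from the counts and the deposited gene lengths. Alternatives were DESeq2 1.42.0, its size factors, no filter, sex as a term, each sex alone, and each library left out. The members and gene lists were chosen with earlier results of these data known. A gene of the list of protease regulators is not reported here and is in none of the counts for that list. Members called for exercise, genotype or their interaction, and all Timp genes, are given in full, those called for sex by fold change, and of other lists the called genes with the largest change. Mice were separate animals.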

Additional observations from a re-analysis of the deposited data

Results flagged for a closer look

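In 132 tests of 1 member in 1 group, over the 33 tested members and 4 groups, 14 had a mouse whose gap to the next was large for the range of its group. The cutoff gives about 1 in 20 by chance for independent, normally distributed values. The tests share the same mice and CPM need not be so distributed, so no excess over chance can be read from the count. In the exercised mD3AKO group, mouse 19 was high for Timp1 (18.2 CPM, next 4.80), Mmp19 (15.5 CPM, next 3.40) and Adamts4 (3.26 CPM, next 0.573), and mouse 23 was high for Adamts12 (12.4 CPM, next 6.22). In the rested mD3AKO group, mouse 7 was high for Mmp14 (45.4 CPM, next 23.4), Mmp11 (6.48 CPM, next 3.85) and Adamts19 (0.868 CPM, next 0.302). In the same group mouse 24 was high for Adamts3 (4.35 CPM, next 2.32) and mouse 21 for Mmp9 (2.82 CPM, next 1.36). In the exercised WT group, mouse 25 was high for Adamts15 (10.9 CPM, next 6.26) and mouse 5 for Mmp16 (1.97 CPM, next 1.29), and mouse 4 was low for Mmp11 (1.93 CPM, next 2.58). In the rested WT group, mouse 14 was low for Adamts17 (0.247 CPM, next 0.507) and mouse 1 for Adamts7 (0.835 CPM, next 1.67).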

How the results depend on the processing

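The count of members called for exercise was 9 and lay between 7 and 9 when each library was left out. With DESeq2, or its size factors in edgeR, it was 9, with sex as a term 10 (Adamts15 added), with no filter on low counts 7 (Mmp24 and Mmp28 lost, adjusted p = 0.0873 and 0.0577), in males alone 7 (Mmp24, Mmp28 and Adamts16 lost and Adamts3 added, adjusted p = 0.0433) and in females alone 3 (Adamts9, Timp3 and Timp4). The share of all genes called moved too, from 10.4% to 11.9% with sex as a term, 4.27% with no filter, 6.01% in males and 3.03% in females. The counts for genotype and for the interaction were 0 under every one of these alternatives. The count for sex was 5 and lay between 1 and 5 when each library was left out, with 1 without mouse 1. No log2 fold change of a called member changed sign under any alternative run. Mmp28 lost its call without mouse 1, 13, 14, 20, 4, 5, 16, 18, 2, 8, 12, 21, 3, 10, 17 or 19, each left out alone, and Mmp24 without mouse 1, 13, 20, 4, 18, 22, 7, 12, 6 or 17. For sex, Adamts8 lost its call in 1 fit (without mouse 1), Adamts1 in 12, Adamts15 in 14 and Adamts3 in 20 of 25. Members with few reads, such as Adamts16 and Mmp24, are limited by depth. No paired analysis was possible because the mouse numbers are not shared between groups.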
